A study of Mus musculus with 8 samples.

Results

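RXR ChIP-seq peaks were examined at the potassium channel genes of the newborn mouse heart. The set comprised all 94 protein-coding genes with a symbol starting with Kcn in the RefSeq gene table of GRCm38.p6, out of 21896 protein-coding genes, and the peaks with a summit within 10 kb of either end of such a gene. These were 74 of the 23961 peaks of the series. The edKO hearts came from newborns with a deletion of Rxra and Rxrb limited to cardiomyocytes (replicates 3 and 4), and the WT hearts from wild-type newborns (replicates 3 and 4). All hearts were taken at postnatal day 0, and each gave 1 immunoprecipitate with an RXR antibody and 1 input. The chromatin came from the total heart, so that cells other than cardiomyocytes kept both genes by design. The sources used here do not give the driver of the deletion. In such bulk chromatin, fewer cells with bound RXR and less RXR per cell cannot be told apart.

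Potassium channels carry the outward currents that repolarise the cardiac action potential and hold the resting potential. Pore subunits open in response to voltage, calcium, G proteins, metabolic state or lipids, and accessory subunits change their gating and their traffic to the membrane. Retinoid X receptors (RXR) bind DNA mostly as partners of other nuclear receptors, at repeats of a short half-site. The Kcn symbols cover channels of the cardiac action potential as well as many that are best known from neurons, glia, kidney and other tissues. A list of 19 cardiac members was therefore set against the other 75.

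One promoter in the set held a summit in both WT hearts, that of Kcna5, which encodes a voltage-gated pore subunit of a rapidly activating repolarising current. The RefSeq promoter sequence (GRCm38.p6, chr6:126535506-126535805, minus strand) runs from 250 bases before to 50 bases after the annotated start. The capitals mark the 17 bases between the summits of WT replicates 4 and 3, which lay 14 and 30 bases after the start. A Kcnh2 promoter (chr5:24329542-24329841, minus strand) is shown beside it because 2 peaks of WT replicate 3 reached into it, over its first 146 and its last 95 bases, here in capitals. This start lies within the gene. The peak over the first bases had its summit at position -266 relative to the start, with a fold enrichment of 6.89, and the other 138 bases after it, with 5.57.
Kcna5: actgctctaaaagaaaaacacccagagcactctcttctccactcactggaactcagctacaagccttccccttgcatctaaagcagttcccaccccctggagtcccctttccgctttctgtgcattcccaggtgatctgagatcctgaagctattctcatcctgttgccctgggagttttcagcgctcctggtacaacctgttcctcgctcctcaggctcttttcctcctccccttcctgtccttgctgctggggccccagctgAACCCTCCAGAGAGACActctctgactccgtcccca
Kcnh2: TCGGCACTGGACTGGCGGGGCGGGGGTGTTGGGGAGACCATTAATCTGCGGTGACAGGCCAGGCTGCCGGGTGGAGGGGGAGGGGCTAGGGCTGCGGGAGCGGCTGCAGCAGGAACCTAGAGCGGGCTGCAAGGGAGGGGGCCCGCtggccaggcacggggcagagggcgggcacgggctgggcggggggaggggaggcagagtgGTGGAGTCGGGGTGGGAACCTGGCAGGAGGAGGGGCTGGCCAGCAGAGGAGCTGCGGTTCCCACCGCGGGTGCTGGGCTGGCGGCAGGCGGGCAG

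The nuclear receptor half-sites AGGTCA and GGGTCA were searched on both strands of these windows. Of the 94 Kcn promoters, which belong to 69 of the genes, 19 held at least 1 half-site (20.2%), against 27.5% of all 32851 promoters in the table. Neither printed promoter held one. The third promoter under a peak, that of the sodium-activated channel gene Kcnt2, held none either, and its peak was called in WT replicate 3 alone with a fold enrichment of 4.88. None of the 3 held a direct repeat of AGGTCA with 1 or 4 bases between the copies. Such repeats were found in 0.0396% and 0.0152% of all promoters, so that a window of this length seldom holds one. No genome sequence was used here, and most summits at Kcn genes lay outside these windows.

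Each heart had its own list of peaks. The fold enrichment used throughout is the authors' own value for a peak, the fragments at its summit over the local background of the same heart. The lists hold 8 peaks in edKO replicate 3, 127 in edKO replicate 4, 19129 in WT replicate 3 and 4697 in WT replicate 4. Recovered from the peak statistics, the background was 3.13 and 2.96 fragments per position in the edKO immunoprecipitates and 2.48 and 2.40 in the WT ones. Peaks of edKO replicate 3 lay near 0 of 12 cardiomyocyte and 1 of 7 endothelial marker genes, and peaks of edKO replicate 4 near 3 and 2 of them. Of all protein-coding genes, 0.0548% and 0.58% had a peak of edKO replicates 3 and 4 within 10 kb. Among the marker genes near a peak of edKO replicate 4, Myh6 and Myh7 share 1 region, and the peak counted for the endothelial gene Nos3 is the one also counted for Kcnh2. RXR regions present in both WT hearts lay near 9 of the cardiomyocyte genes, 5 of the endothelial, 1 of 6 fibroblast and 0 of 8 neuronal marker genes. Such a region lay within 10 kb of 15.1% of all protein-coding genes. In these counts too, Myh6 and Myh7 had the same strongest region, and the strongest region of Nos3 was also counted for Kcnh2. Nppa was the cardiomyocyte marker without a peak in any heart. Peaks measure binding, not expression, so that these counts do not measure which cells were present.

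RXR peaks at Kcn genes were nearly all WT peaks. The edKO hearts had 0 and 1 of them in replicates 3 and 4, against 59 and 14 in WT replicates 3 and 4. The means were 0.5 ± 0.707 peaks in edKO hearts and 36.5 ± 31.8 in WT hearts (SD, n = 2 each), a ratio of 1.37%. Over all peaks of the series that ratio was 0.567%. The groups did not overlap, but 2 hearts against 2 cannot give a two-sided p below 0.333 in an exact permutation test. The WT counts also lay far apart. Without WT replicate 3 the ratio was 3.57%, and without edKO replicate 4 it was 0. The lowest called summit in edKO replicate 4 held 17 fragments and in edKO replicate 3 it held 24. In WT replicates 3 and 4 it held 11 and 12, so that the lists reach down to unlike limits. With peaks of a −log10 p of at least 10 alone, the ratio was 2.17%. Of 13 regions at Kcn genes present in both WT hearts, 12 held at least 17 fragments in each WT heart and 10 at least 24.

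**Figure D1:**
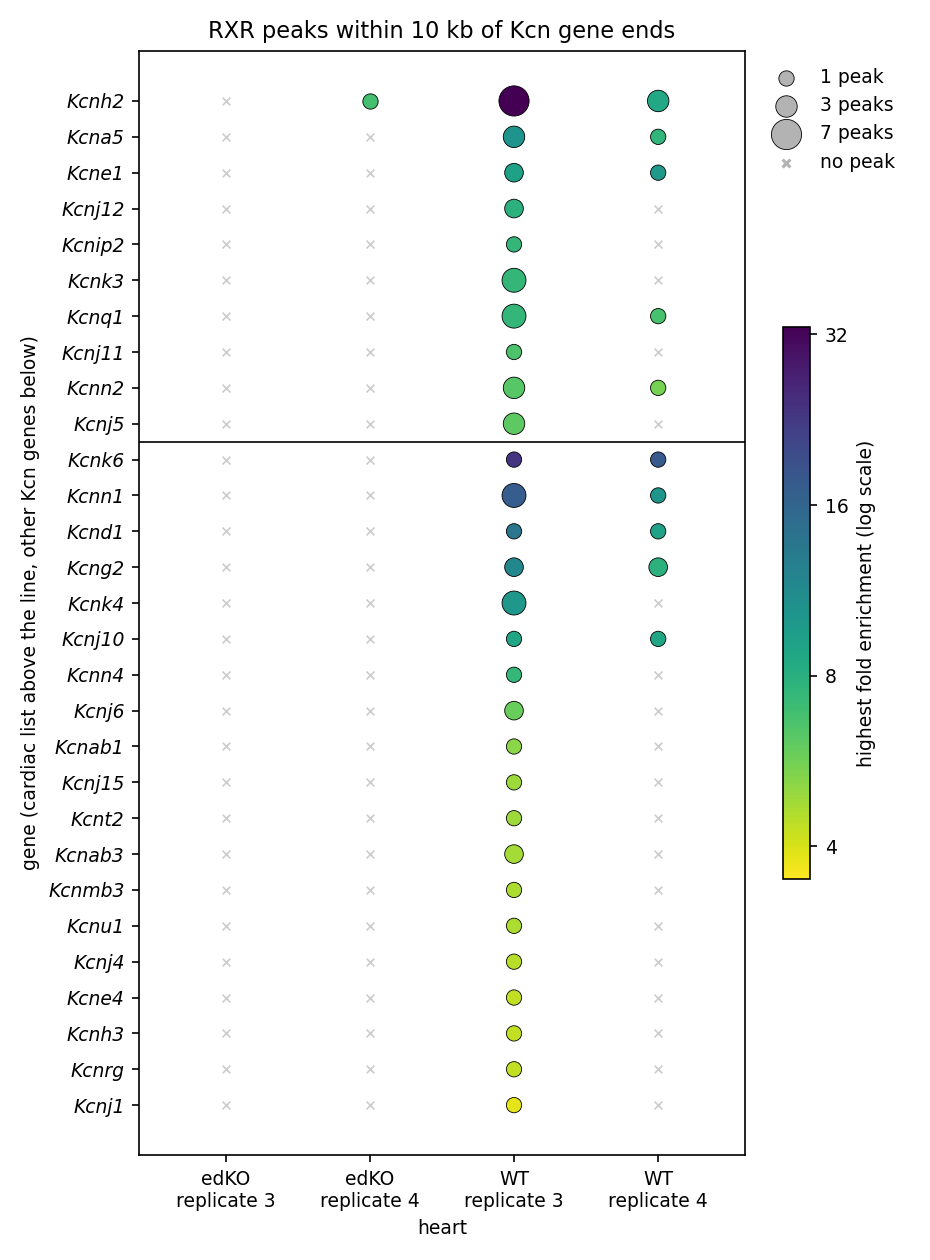
Peaks within 10 kb of the ends of 29 of the 30 Kcn genes that had any, by heart. Colour gives the highest fold enrichment on a log scale, the size of a point the number of peaks, and a cross the absence of a peak. The edKO columns hold 1 point, at Kcnh2, and every gene drawn has a point in WT replicate 3.

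Regions with overlapping peaks in both WT hearts lay within 10 kb of 11 Kcn genes, or 11.7% (95% Clopper-Pearson interval 5.99 to 20.0%), where 15.1% of all protein-coding genes had such a region. For shared regions the Kcn genes as a whole were thus near the background. A further 19 genes had a peak in WT replicate 3 alone, and 64 had none in any heart. The 30 genes with a peak of WT replicate 3 made up 31.9% (interval 22.7 to 42.3%), slightly below the 42.4% of all genes at its upper limit. The 11 genes with a peak of WT replicate 4 were the 11 with a shared region, against 15.8% of all genes with a peak of that heart. With an edKO peak there was 1 Kcn gene, in replicate 4, where 0.58% of all genes had one, and none in replicate 3, where 0.0548% had one.

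The cardiac members and the rest differed in these counts. Of the 19 cardiac genes 6 had a shared region, or 31.6% (interval 12.6 to 56.6%), against 5 of the other 75, or 6.67% (2.20 to 14.9%). The intervals overlap, cover counting error only, and treat genes as if they were independent. With any peak of WT replicate 3 the shares were 57.9% of the cardiac and 25.3% of the other genes. The cardiac interval was 33.5 to 79.7%, and that of the other genes had an upper limit of 36.7%. Of all protein-coding genes, 15.1% had a shared region and 42.4% a peak of WT replicate 3. In this window both cardiac intervals held these shares, which does not show that cardiac genes and all genes were alike. With the nearest gene alone counted, 6 of 19 cardiac genes still had a region. Their interval of 12.6 to 56.6% then lay above the 10.5% of all genes. Within 50 kb 11 of 19 had one, and the interval of 33.5 to 79.7% for that count lay above 31.9%. The 10 kb intervals of the other Kcn genes ended below the shares of all genes. For shared regions the gap was small, 14.9% against 15.1%. With summits inside the gene counted as well, their interval of 3.84 to 18.3% held the 17.4% of all genes. With a fold enrichment of at least 5 in both WT hearts they stayed at 6.67%, against 10.9%. With the nearest gene alone, 0 of 75 had a region, against 10.5%. The cardiac list was drawn up with earlier results of these data known, and the difference between cardiac and other Kcn genes was not tested. The cardiac genes with a region included Kcnh2, Kcnq1, Kcne1, Kcna5 and Kcnn2. The other genes with one were Kcnk6, Kcnn1, Kcnd1, Kcng2 and Kcnj10.

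The position of the regions separated the same groups. Each of the 6 cardiac genes was the gene with the end nearest to at least 1 of its regions. None of the 5 other genes was. Of all protein-coding genes with a shared region, 69.5% were the nearest gene of one. The region counted for Kcnk6 lay inside Yif1b, that for Kcnn1 had its summit 8 bp inside Arrdc2, that for Kcnd1 lay inside Otud5, that for Kcng2 inside Slc66a2, and that for Kcnj10 was 175 bp outside Pigm. With the nearest gene alone counted, 10.5% of all genes had a region, and the counts were 6 of 19 cardiac and 0 of 75 other Kcn genes.

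**Figure D2:**
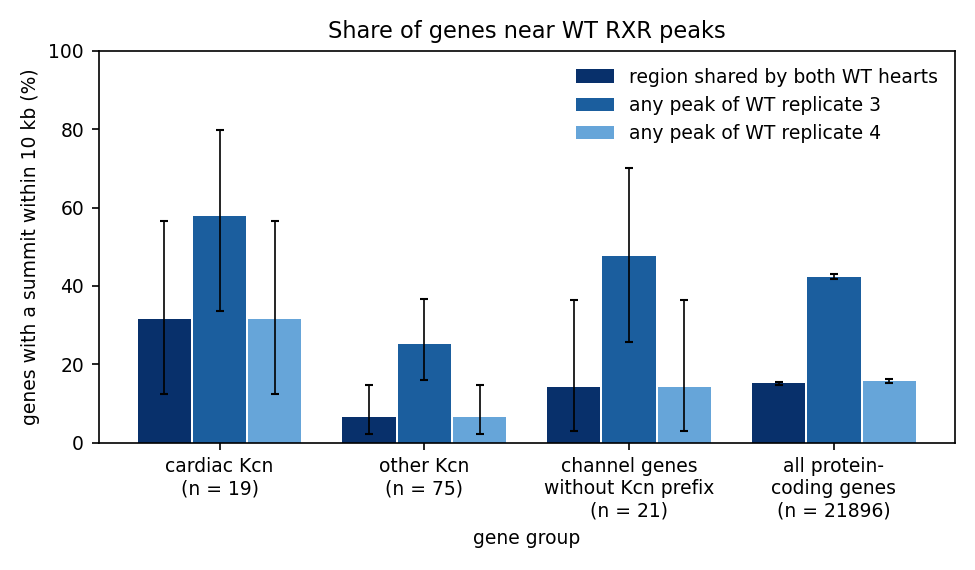
Share of genes with an RXR summit within 10 kb of either end, in percent, for the cardiac Kcn genes, the other Kcn genes, 21 channel genes without the Kcn prefix and all protein-coding genes. Bars give regions shared by both WT hearts and any peak of each WT heart, with 95% Clopper-Pearson intervals. The shared bar stands at 31.6% for the cardiac and 6.67% for the other Kcn genes, on either side of 15.1% for all genes.

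The 13 shared regions at Kcn genes ranged from weak to strong within the series. Their fold enrichment, averaged over both WT hearts, had a median of 9.75, against 7.65 for the 2598 shared regions within 10 kb of any protein-coding gene. Of the 13, 10 lay above the median of all 4342 shared regions and 2 in the top 10%. WT replicate 3 had the higher fold enrichment in 9 of the 13 and WT replicate 4 in 4. Over all shared regions WT replicate 3 was higher in 82.7%. Of the 4342, 125 (2.88%) overlapped a peak of edKO replicate 4 and 8 one of edKO replicate 3. Most shared regions of the series thus had no edKO peak. Of the 13, 4 had their summit inside the Kcn gene, and 3 lay within 1 kb of its end, those at Kcne1 and Kcna5 among them. The 3 genes made up 3.19% of the Kcn genes, where 8.38% of all genes had a shared region that close.

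**Figure D3:**
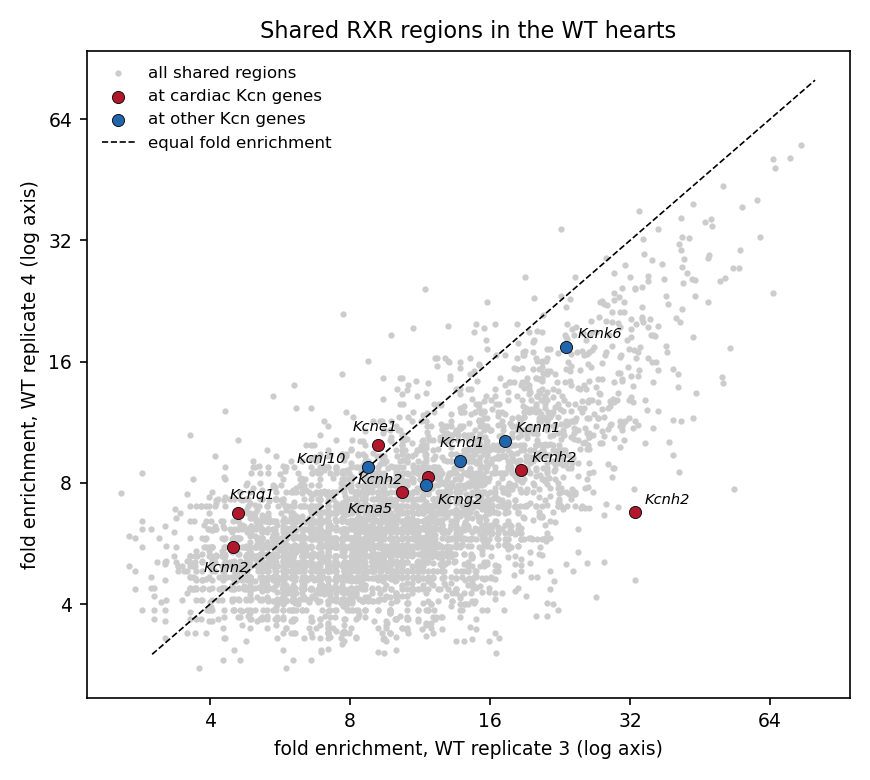
Fold enrichment of each shared region in WT replicate 3 (x, log axis) and WT replicate 4 (y, log axis), with 12 of the 13 regions at Kcn genes coloured over the 4342 in grey. The Kcnk6 region lies highest, and the strongest Kcnh2 region lies far to the right of the diagonal, at 32.7 and 6.77.

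Kcnh2 had the most peaks of all Kcn genes. It encodes the pore of the rapid delayed rectifier, a current that ends the action potential in large mammals, and in people its loss of function prolongs the QT interval. Its windows held 1 peak of edKO replicate 4 and 0 of edKO replicate 3, against 7 peaks in WT replicate 3 and 3 in WT replicate 4. Those of WT replicate 4 each overlapped one of WT replicate 3 and formed 3 regions, all outside the gene beyond its upper-coordinate end. That end is the 5′ one on the minus strand. The next gene there is Nos3, the endothelial nitric oxide synthase gene, which begins 13132 bp beyond the end of Kcnh2.

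The region nearest to Kcnh2 (mm10 chromosome 5, 24351716 to 24352996) lay 1059 bp outside the gene, with fold enrichments of 18.7 and 8.60 in WT replicates 3 and 4 and no peak in an edKO heart. The farthest, from 24360854 to 24361374, had 11.8 and 8.26 in WT replicates 3 and 4, no edKO peak, and a summit 9400 bp from Kcnh2 and 3732 bp from Nos3. Both had more fragments at the summit than the weakest called peak of either edKO heart, with 64 and 31 in WT replicates 3 and 4 at the near region and 40 and 28 at the far one.

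The middle region, from 24357469 to 24357866, carried the edKO peak. Its summit lay 6004 bp outside Kcnh2, and Kcnh2 was the gene with the nearest end. The edKO summit was 7138 bp from Nos3, so that this peak is within 10 kb of both genes. The fold enrichment was 6.82 in edKO replicate 4, against 32.7 in WT replicate 3 and 6.77 in WT replicate 4, so that the edKO value lay close to the lower WT one and slightly above it. The fragments behind these ratios lay further apart. The summit held 26 fragments in edKO replicate 4 (95% exact Poisson interval 17.0 to 38.1), against 113 (93.1 to 136) in WT replicate 3 and 48 (35.4 to 63.6) in WT replicate 4. Local background was 2.96 fragments in edKO replicate 4, against 2.48 in WT replicate 3 and 6.21 in WT replicate 4, where it stood above the genome-wide 2.40 of that library. These intervals cover counting error only.

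Such a balance was rare among shared regions. The shared regions with a peak in edKO replicate 4 were 125, or 2.88% of all. Of these, 2 had a fold enrichment in edKO replicate 4 at least as high as in WT replicate 4. The median of the edKO to WT ratio over the 125 was 0.344 against WT replicate 4 and 0.203 against WT replicate 3. The ratio of WT replicate 3 to WT replicate 4 at this Kcnh2 region, 4.83, was higher than at 99.7% of all shared regions or equal to it. The peak ranked 42nd of the 127 in edKO replicate 4, against 94th of 19129 in WT replicate 3 and 1724th of 4697 in WT replicate 4.

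**Figure D4:**
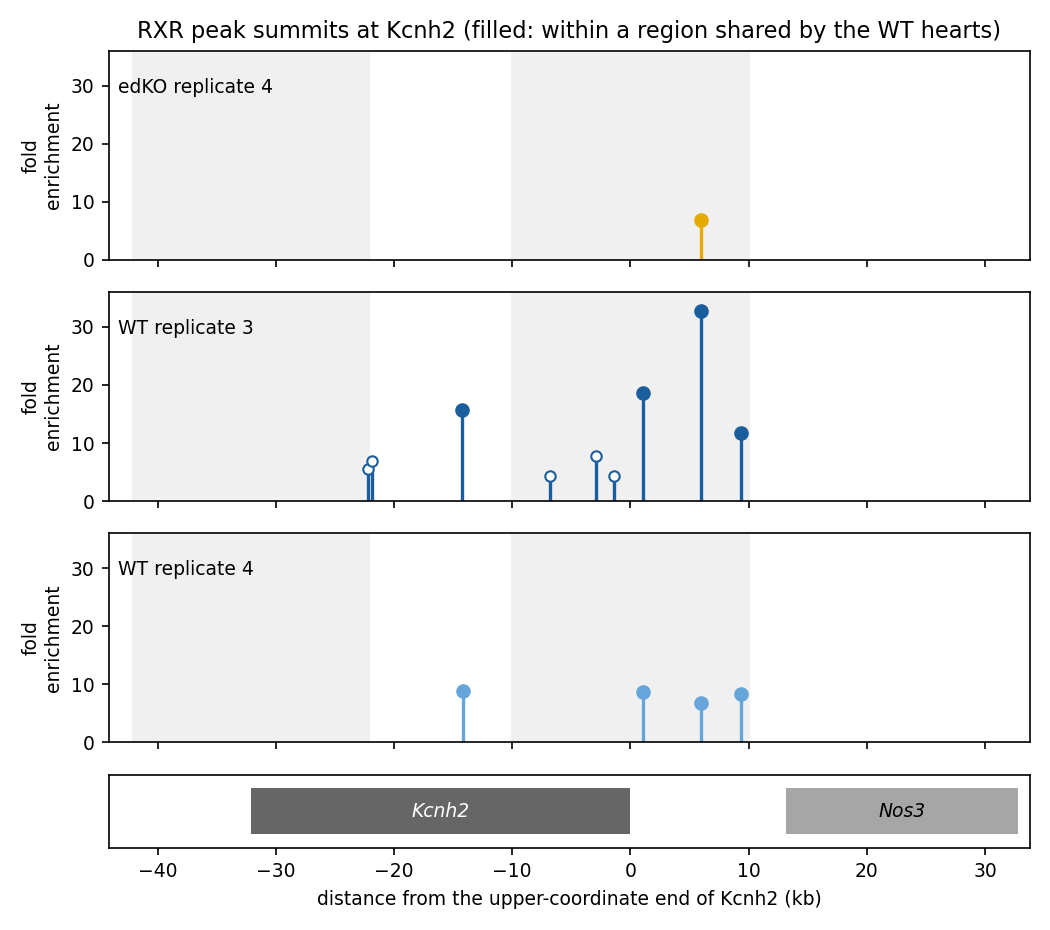
Peak summits at and inside Kcnh2 by heart, with the fold enrichment (y) against the distance in kb from the upper-coordinate end of the gene (x). Grey bands mark the windows of 10 kb around each gene end, and boxes the genes. The only edKO peak, at 6.82, stands at the same place as the tallest peak of WT replicate 3, at 32.7, and edKO replicate 3 had no peak here.

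Further inside Kcnh2, outside both windows, another region had no edKO peak but a peak in each WT heart. It lay from 24337260 to 24337729, 14252 bp from the nearer gene end, with fold enrichments of 15.8 and 8.83 in WT replicates 3 and 4. The remaining 4 peaks of WT replicate 3 in the windows ranged from 4.24 to 7.75 and had no partner in WT replicate 4. A peak of WT replicate 3 10268 bp from an end of Kcnh2, with a fold enrichment of 6.89, was just outside the window, and one at 9864 bp, with 5.57, just inside. Peaks of WT replicate 3 also lay near the limit at Kcnn2 (9724 bp, 6.32) and Kcnk3 (9701 bp, 7.46), inside it, and at Kcna7 (10468 bp, 4.59), outside it.

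Kcnq1 and Kcne1 encode the pore and the accessory subunit of the slow delayed rectifier. Neither gene had a peak in an edKO heart. Kcnq1 had 4 peaks of WT replicate 3 within 6 kb of its lower-coordinate end, with fold enrichments of 7.46, 5.45, 4.68 and 4.59 from the end inwards, and 1 peak of WT replicate 4, with 6.71. The shared region was the weakest of the 4 in WT replicate 3, on chromosome 7 from 143112087 to 143112734, 5637 bp inside the gene. The strongest, 69 bp from the gene end with 25 fragments, was not called in WT replicate 4. A further shared region lay 15950 bp inside Kcnq1 (5.17 and 5.84 in WT replicates 3 and 4), outside the window.

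Kcne1 had its region 612 bp outside the gene, on chromosome 16 from 92345164 to 92345581. The fold enrichments were 9.19 and 9.92 in WT replicates 3 and 4, from 31 and 33 fragments, and no peak was called in either edKO heart. This was the best matched pair among the cardiac regions. A second peak of WT replicate 3, 544 bp inside the gene, had a fold enrichment of 6.97. Kcne2, a related accessory subunit gene, had no peak within 10 kb in any heart.

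Among the other voltage-gated channels, Kcna5 had a shared region close to a gene end. This region, at the promoter printed above, ran on chromosome 6 from 126535360 to 126535688. It had fold enrichments of 10.3 and 7.59 in WT replicates 3 and 4, from 35 and 25 fragments, and no edKO peak. WT replicate 3 had 2 further peaks in the window of Kcna5, at 4.47 and 4.31, and neither was called in WT replicate 4.

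The genes of the transient outward current stood apart from these. Kcnd2 and Kcnd3, which encode the pores of its fast component in rodents, and Kcna4, which encodes that of the slow component, had no peak within 10 kb of an end in any heart. Kcnd3 held 2 peaks of WT replicate 3 deep inside the gene, at 69682 and 87192 bp from the lower-coordinate end, with 5.57 and 12.2, and neither was called in WT replicate 4. Kcnip2 encodes a calcium-binding accessory subunit of the Kcnd2 and Kcnd3 channels. It had 1 peak of WT replicate 3 (7.46), 8701 bp outside the gene and 1 bp from an end of Oga.

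No cardiac inward rectifier gene had a shared region. Kcnj2, the main pore of the current that sets the resting potential, had no peak in any heart. Kcnj12, which encodes another pore of that current, had 2 peaks of WT replicate 3, at 7.88 and 7.42, the first 397 bp outside the gene. Kcnj3 and Kcnj5 form the acetylcholine-activated channel of the atria. Kcnj3 had no peak, and Kcnj5 had 3 of WT replicate 3 from 3.62 to 6.13. Kcnj8 and Kcnj11 encode pores of the ATP-sensitive channel. Kcnj8 had no peak, and Kcnj11 had 1 of WT replicate 3, at 6.60, 1485 bp inside the gene.

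Of the remaining cardiac members, Kcnn2, which encodes a small-conductance calcium-activated channel, had the weakest shared region of the set. It lay on chromosome 18, 4021 bp inside the gene, with fold enrichments of 4.47 and 5.55 in WT replicates 3 and 4 from 20 and 18 fragments, and no edKO peak. Kcnk3, which encodes an acid-sensitive background channel, had 4 peaks of WT replicate 3 from 3.98 to 7.46 and none of WT replicate 4. The stretch-sensitive channel gene Kcnk2 had no peak in any heart. In all, 8 of the 19 cardiac genes had no peak and 5 had peaks of WT replicate 3 alone. The 11 peaks at those 5 genes had a median of 6.60, and the 19 at the other Kcn genes without a shared region one of 4.63, against 5.46 for the whole list of that heart.

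Outside the cardiac list, the strongest region was that counted for Kcnk6, a background channel gene, on chromosome 7 from 29238118 to 29238831. It had fold enrichments of 23.3 and 17.4 in WT replicates 3 and 4, from 80 and 71 fragments, and lay 5991 bp outside Kcnk6. The region 3446 bp outside Kcnn1, a gene of the same calcium-activated family as Kcnn2, had 17.2 and 10.2 in WT replicates 3 and 4. That 2917 bp outside Kcnd1, a relative of Kcnd2, had 13.8 and 9.05 in WT replicates 3 and 4. The region near Kcng2, whose product does not form a channel alone but modifies other pore subunits, had 11.6 and 7.88 in WT replicates 3 and 4. That near Kcnj10, an inward rectifier gene best known from glia, had 8.73 and 8.75 in WT replicates 3 and 4. None of these 5 had a peak in an edKO heart, as was the case for most shared regions of the series.

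The other 14 genes with peaks of WT replicate 3 alone were led by Kcnk4, a mechanosensitive background channel gene, with 4 peaks of which the highest was 10.0. The strongest 2 lay 119 and 682 bp from an end of Esrra, the gene of the estrogen-related receptor alpha. Kcnn4 followed with 1 peak inside the gene (7.42). The 30 peaks at the 19 genes without a shared region held 13 to 36 fragments, against 15 to 113 for WT replicate 3 in the 13 shared regions. These genes were grouped by having no peak in WT replicate 4, so that its absence there is not a separate result.

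By family, shared regions were found near 3 of 17 genes of Kcna, Kcnb, Kcnc and Kcnd, 1 of 10 silent subunit genes of Kcnf, Kcng, Kcns and Kcnv, 1 of 5 Kcnq genes and 1 of 8 Kcnh genes. They were found near 1 of 15 Kcnj genes, 1 of 14 Kcnk genes, 2 of 8 genes of calcium- and sodium-activated pores and 1 of 17 accessory subunit genes. The shares ran between 5.88% and 25.0%, and the interval of each family held the 15.1% of all genes. With any peak of WT replicate 3 the shares ran between 10% (1 of 10 silent subunit genes) and 62.5% (5 of 8 genes of calcium- and sodium-activated pores). The interval of each family again held the share of all genes, 42.4%. Near such a peak were 8 of the 15 Kcnj genes and 3 of the 17 Kcna to Kcnd genes.

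The window around the ends leaves out the interior of long genes. Kcn genes had a median length of 32.7 kb, against 17.1 kb for all protein-coding genes. Counting summits anywhere inside a gene as well, 13 Kcn genes had a shared region, or 13.8%, against 17.4% of all genes. Among the added genes was Kcnq5, a relative of Kcnq1 best known from neurons (10.0 and 4.84 in WT replicates 3 and 4). The cardiac count stayed at 6 of 19, with the same genes.

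Channel genes without the Kcn prefix gave a comparison within the cardiac action potential. Of 21 such genes 3 had a shared region within 10 kb, or 14.3% (interval 3.05 to 36.3%). With summits inside the gene counted as well there were 9, or 42.9%, against 17.4% of all genes. These 21 genes had a median length of 111 kb, against 17.1 kb for all genes. They included Cacna1c, the pore of the L-type calcium channel (8.04 and 7.64 in WT replicates 3 and 4) and Gja5, an atrial and conduction system connexin gene (10.0 and 7.01 in WT replicates 3 and 4). Abcc8, which encodes a regulatory subunit of the ATP-sensitive channel and neighbours Kcnj11, was near the same peak of WT replicate 3 as Kcnj11 (6.60). None of the 21 had a peak in an edKO heart, where 0.0548% and 0.58% of all genes had one in edKO replicates 3 and 4.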

How the data were processed

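RXR ChIP and input libraries came from 2 edKO and 2 WT hearts. Per the submitters' processing notes, the authors used cutadapt, BWA, SAMtools and MACS3 on mm10 (GRCm38). The sources used here give no versions, settings or duplicate handling. The authors called peaks per heart. The deposited lists give each peak's start, end and summit, a fold enrichment (a ratio of summit fragments to local background) and −log10 p and −log10 q values. Coordinates are printed 1-based.

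Peaks of the WT hearts overlapping by at least 1 bp formed shared regions, each with the strongest partner and the summit of WT replicate 3. Fragments and background were solved from the fold enrichment (pseudocount 1) and the Poisson −log10 p. All solved peaks gave whole fragments within 0.02, after scaling in edKO replicate 3 and WT replicate 4. In WT replicate 3, 9 peaks were not solved. Overlap, distance and depth steps were tested on simulated data. Read totals were not used here, so the background per position stands for depth.

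Gene ends came from RefSeq (GRCm38.p6). Members and lists were chosen with earlier results of these data known. Named genes were the 19 cardiac genes, Kcn genes with shared regions or edKO peaks, the 5 strongest with peaks of 1 WT heart, and the comparison channels with regions. Of these 5, Kcnk4, Kcnj12, Kcnip2, Kcnk3 and Kcnn4, each is described. Kcnt2, Kcnq5, Kcna7, Abcc8 and Esrra were named after their values were seen. Some genes that are in the counts are not reported here. No test was run across genes. Python 3.11.15, scipy 1.17.1 and pandas 2.3.3 were used.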

Additional observations from a re-analysis of the deposited data

How the results depend on the processing

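No paired analysis was possible because the results are counts of peaks with no test between hearts in which a block could enter. Within a number, edKO replicate 3 had 0 peaks at Kcn genes against 59 in WT replicate 3, and edKO replicate 4 had 1 against 14 in WT replicate 4. The labels do not say that a number marks a litter or a day. Of 55 alternative values, 42 stayed within 1.5 times the main count or within the spread between hearts. This tally was partly fixed in advance. It holds the highest fold enrichment at the 6 genes kept with the nearest gene alone, but no value for the 5 genes lost. For the ratio of edKO to WT peaks the spread was 1.94 percentage points around 1.37%, so that even a ratio of 0 counted as within it. With summits within 1 kb of a gene end, 3 Kcn genes had a shared region, 3 cardiac and 0 other. Within 50 kb there were 24, 11 cardiac and 13 other, or 57.9% and 17.3%, against 31.9% of all genes. With the nearest gene alone, 6 Kcn genes remained, of which 0 were outside the cardiac list. With each WT heart alone in turn, 11 to 30 Kcn genes had a peak, 6 to 11 cardiac and 5 to 19 other, and the median fold enrichment at Kcn genes was 5.57 to 8.07. The ratio of edKO to WT peaks was 0 to 3.57% with each heart left out in turn. The cardiac share was above that of the other Kcn genes in each of these settings and with stricter peaks or overlaps. All of them use the same WT peak lists and the cardiac list drawn up with earlier results of these data known. They therefore do not test this difference. A fold enrichment of at least 5 in both WT hearts left 4 cardiac and 5 other genes, or 21.1% and 6.67%, against 10.9% of all genes. Peak lists hold no values below the calling threshold, so a gene without a peak may hold signal not detectable at this depth.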
